A study of Mus musculus with 10 samples.

Results

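The genes described here are 31 genes of resident macrophages and other myeloid cells, listed by gene symbol with no threshold on their values, out of 35667 genes in the count tables of mouse aorta. All 31 were found, and 30 had enough counts to be tested (the scavenger receptor gene Marco did not, with 0 to 6 counts per library). The libraries came from the aorta of C57BL/6 mice aged 12 weeks, with no treatment named. Of 10 libraries, 5 were labelled knockout (KO) for Ovgp1, the gene of a secreted oviductal glycoprotein, and 5 wild type (WT). The titles name Ovgp1 in all 5 KO libraries, whereas the genotype field names Ovgp1 for replicate 1 and Ovgp2 to Ovgp5 for replicates 2 to 5. The labels do not say how the allele was made, or whether each library came from its own animal.

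Macrophages reside in the adventitia, the outer coat of arteries, and their survival depends on signals through the receptor encoded by Csf1r. The transcription factor PU.1, the product of Spi1, is needed for the myeloid lineage and keeps many of its genes active. Arterial macrophages are known for engulfing dying cells and debris, for making complement C1q, and for carrying scavenger receptors and lectins such as the mannose receptor. The hyaluronan receptor LYVE1 marks a perivascular subset.

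Some properties of the libraries bear on every value below. Total counts ran from 21242030 to 26694590. Ovgp1 itself, the targeted gene, was higher and not lower in the libraries labelled KO, at 17.8 to 21.9 against 1.98 to 4.69 CPM. CPM are counts per 1e6 counts after TMM scaling of the library sizes. Every direction therefore follows labels that Ovgp1 goes against. The libraries labelled KO differed little from each other, with a biological coefficient of variation of 2.82% against 21.25% among those labelled WT. P-values from 5 against 5 libraries therefore measure only the spread between these libraries, which may be technical. A fit with the KO counts summed into 1 sample, so that only WT libraries set the spread, is given beside it. WT replicates 1 and 3 stood apart by their mitochondrial share of counts, at 16.2% and 13.2% against 6.75% to 9.59% in the other WT libraries and 7.61% to 7.88% in KO. The aortic smooth muscle genes Acta2 and Myh11 were abundant in all libraries, with at least 14720 and 7229 CPM. In whole tissue, more cells of a type and more RNA per cell cannot be told apart.

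In the comparison of 5 KO with 5 WT libraries, 8 of the 30 tested genes passed an adjusted p of 0.05 (edgeR quasi-likelihood test, Benjamini-Hochberg over all 15710 tested genes), or 26.7%, against a background of 14.3% of all tested genes. The genes higher in the libraries labelled KO were Csf1r, the F4/80 gene Adgre1, the CD45 gene Ptprc, Trem2, the dectin-1 gene Clec7a, Gas6 and the cathepsin gene Ctss. These 7 are 23.3% of the 30, against 6.84% of all genes. The efferocytosis receptor gene Mertk was lower, the only one of the 30 (3.33%), against 7.43% of all genes. In the same 7 genes every KO library lay above every WT library (7.38% of all genes), and in Mertk below (7.22%). With DESeq2, 11 of the 30 passed (36.7%, against 18.9% of all genes), 9 higher (against 9.41%) and 2 lower (against 9.53%). With upper quartile scaling none was lower (4.72% of all genes), nor with no filter on low counts (1.9%). The median log2 difference was 0.09 over the 30 genes and -0.02 over all tested genes.

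With the KO counts summed into 1 sample, 0 of the 30 passed in the same edgeR test (adjusted p of at least 0.971), where 0.0446% of all genes did. At an unadjusted p under 0.05, 5 of the 30 were higher in that fit (Clec7a, Adgre1, Csf1r, Ptprc and Gas6), or 16.7% against 2.36% of all genes, and none was lower, where 1.36% of all genes were. The calls in Csf1r, Adgre1, Ptprc, Clec7a and Gas6 held on leaving out any of the 10 libraries in the 5 against 5 fit (adjusted p at most 0.0197). Trem2 lost its call without KO replicate 1, 3 or 5 (adjusted p 0.0536, 0.0541 and 0.0603). Ctss lost it without any KO library (0.0685 to 0.0842) or without WT replicate 3 (0.0536), and Mertk without any KO library (0.0699 to 0.0740) or without WT replicate 5 (0.0694). Without WT replicate 2, 13 of the 30 passed (43.3%, against 16.8% of all genes), 12 of them higher (against 8.62%) and 1 lower (against 8.18%), the added ones being Ms4a7, C1qa, C1qc, Lyz2 and F13a1.

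**Figure D1:**
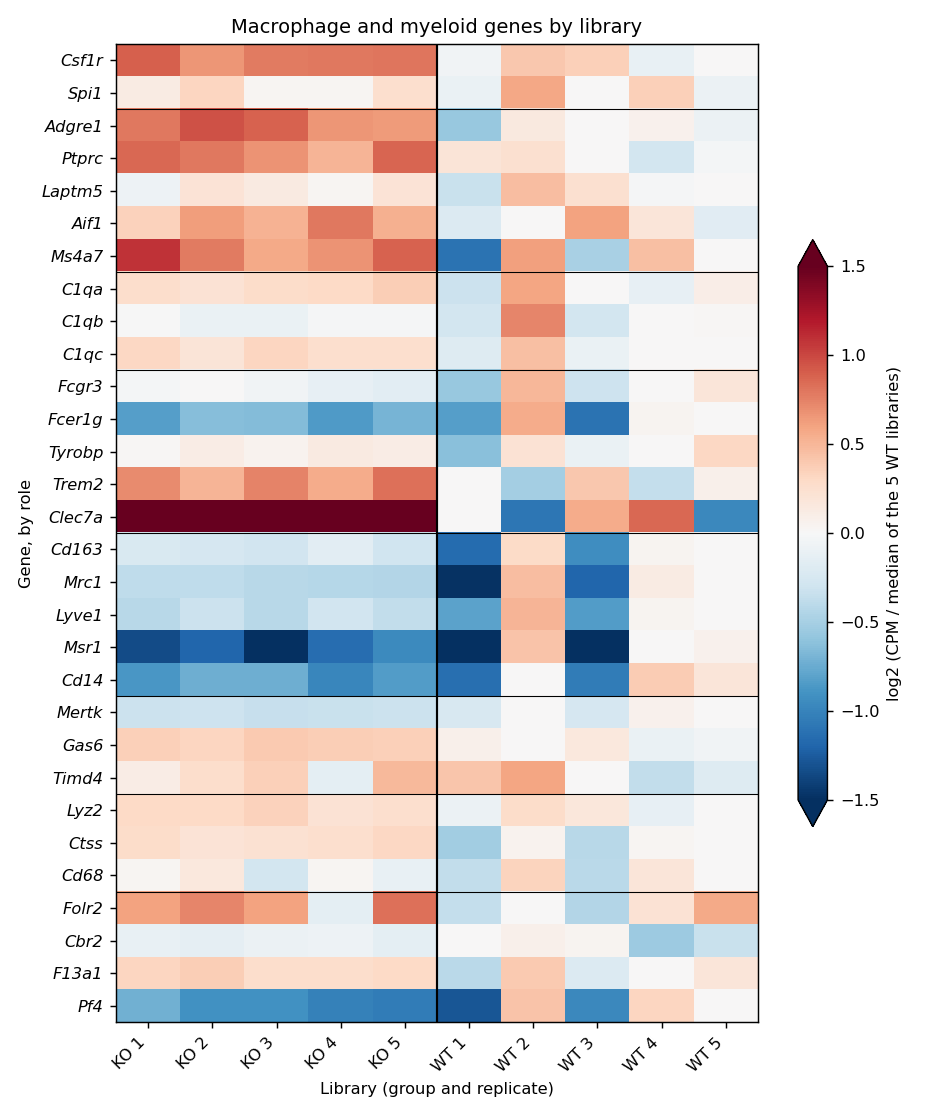
Level of the 30 tested genes in each library, as log2 of CPM over the median of the 5 WT libraries (red higher, blue lower), with genes in rows by role and libraries in columns. Csf1r, Adgre1, Ptprc, Trem2 and Clec7a are red in all KO libraries, and Cd163, Mrc1, Lyve1, Msr1, Cd14 and Pf4 are blue in WT 1 and WT 3 and paler blue or blue in KO.

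Csf1r (ENSMUSG00000024621, chromosome 18), the receptor for the growth factors CSF1 and IL-34, had 44.8, 38.2, 41.6, 41.9 and 42.3 CPM in KO replicates 1 to 5 and 23.3, 31.9, 30.9, 22.4 and 24.15 CPM in WT replicates 1 to 5. The groups did not overlap, and WT replicates 2 and 3 were the highest of their group. The fold was 1.57 (95% interval 1.35 to 1.83, adjusted p = 0.00211 by edgeR), and with KO as 1 sample 1.57 (1.12 to 2.21). Part of its exons (873 of 5774 bases) overlaps Hmgxb3 on the opposite strand, whose levels overlapped between groups (16.1 to 19.9 CPM in KO, 15.02 to 20.6 CPM in WT). Spi1, the lineage factor, had 3.40 to 4.17 CPM in KO and 3.13 to 5.003 CPM in WT, with a fold of 0.98 (95% interval 0.78 to 1.24).

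Among genes of leukocyte and macrophage identity, Adgre1 (ENSMUSG00000004730, chromosome 17, 57358691 to 57483527 in GRCm38), a surface marker of mouse macrophages, had 8.78, 9.89, 9.401, 8.08 and 7.95 CPM in KO and 3.44, 5.645, 5.09, 5.31 and 4.78 CPM in WT replicates 1 to 5. Every KO library lay above every WT library, and WT replicate 1 was the lowest. The fold was 1.81 (95% interval 1.49 to 2.21, adjusted p = 0.00203 by edgeR). Ptprc, a tyrosine phosphatase on all white blood cells, had 5.27, 5, 4.61, 4.13 and 5.29 CPM in KO and 3.31, 3.42, 2.89, 2.39 and 2.83 CPM in WT. Its groups did not overlap either, with a fold of 1.64 (95% interval 1.34 to 1.99, adjusted p = 0.00529 by edgeR).

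Other genes of this role did not pass. Laptm5, a lysosomal membrane protein of blood cells, had 6.90 to 8.43 CPM in KO and 5.80 to 10.01 CPM in WT, so that all KO libraries lay inside the WT range. Aif1, the actin-binding protein IBA1, had 1.80 to 2.45 against 1.22 to 2.15 CPM (log2 difference 0.46, SE 0.18, adjusted p = 0.115 by edgeR). Ms4a7, a membrane protein of mature macrophages, had 4.15, 3.35, 2.88, 3.11 and 3.59 CPM in KO and 0.906, 2.99, 1.397, 2.68 and 1.95 CPM in WT. For Ms4a7 only WT replicate 2 reached the KO range (log2 difference 0.77, SE 0.27, adjusted p = 0.0767 by edgeR, 0.0256 without WT replicate 2 and 0.0296 with DESeq2).

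Of the Fc and activating receptors and their adaptors, 2 of 5 passed. Clec7a (ENSMUSG00000079293, chromosome 6, 129461591 to 129472779), the receptor dectin-1 for fungal beta-glucans, had the greatest log2 difference of the 30, in low counts. It had 26 to 47 counts in each KO library and 6, 3, 8, 12 and 3 counts in WT replicates 1 to 5, or 0.98 to 1.76 against 0.13 to 0.49 CPM. The fold was 4.502 (95% interval 2.70 to 7.51, adjusted p = 0.00220 by edgeR), and 4.53 (1.80 to 11.4) with KO as 1 sample. Trem2, a lipid-sensing receptor that signals through the Tyrobp adaptor, had 2.59, 2.26, 2.66, 2.34 and 2.81 CPM in KO and 1.585, 1.11, 2.096, 1.235 and 1.67 CPM in WT. The groups did not overlap, WT replicate 3 coming closest to KO (fold 1.65, 95% interval 1.26 to 2.17, adjusted p = 0.0212 by edgeR).

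The adaptors themselves, and the IgG receptor Fcgr3, did not pass. Tyrobp, the adaptor DAP12, had 6.10 to 6.62 CPM in KO and 3.90 to 7.43 CPM in WT. Fcer1g, the common gamma chain of Fc receptors, had 7.66, 8.72, 8.69, 7.57 and 8.396 CPM in KO and 7.655, 20.1, 6.29, 14 and 13.6 CPM in WT replicates 1 to 5. WT replicates 2, 4 and 5 lay above all KO libraries, replicate 1 within their range and replicate 3 below it. Fcgr3 had 13.2 to 14.8 against 9.87 to 20.7 CPM, with KO inside the WT range.

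**Figure D2:**
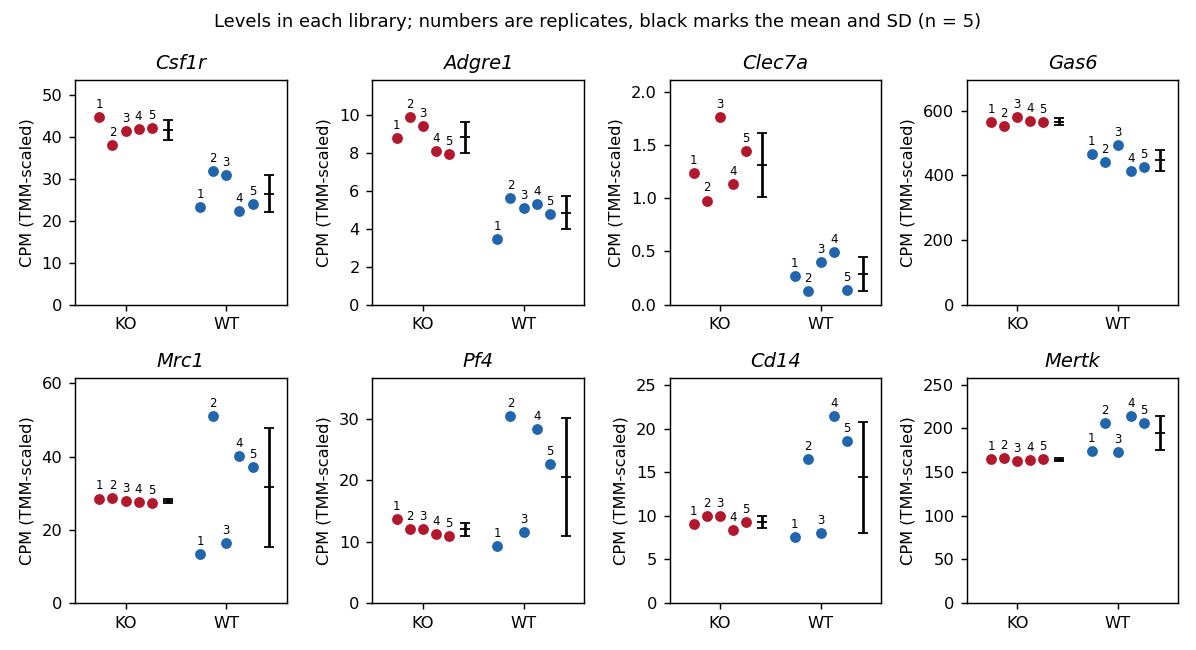
TMM-scaled CPM of 8 genes in each library on linear axes from 0, with 1 point per library numbered by replicate (red KO, blue WT) and black marks for the mean and SD (n = 5 per group). In Csf1r, Adgre1, Clec7a and Gas6 all KO points lie above the WT points and in Mertk below them, whereas in Mrc1, Pf4 and Cd14 the KO points lie between WT 1 and WT 3 on one side and WT 2, WT 4 and WT 5 on the other, except that WT 3 falls within the KO points of Pf4.

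Sequence before the start sites is shown for the 4 called genes, all higher in KO, whose promoter window holds the core of known PU.1 sites, because PU.1 is a shared factor of this lineage. Windows of 250 bases before the RefSeq start (GRCm38.p6) were matched by symbol for 23 of the 31 genes, and searched on both strands for GAGGAA, which reads TTCCTC on the other strand. Of the 23, 15 (65.2%) held it in a window, against 25.9% of 27025 genes. The match is a description of letters, and no binding was measured. Each sequence is given 5′ to 3′ on the strand of its gene, with the motif in capitals.
Ptprc, chr1:138175306-138175555, minus strand: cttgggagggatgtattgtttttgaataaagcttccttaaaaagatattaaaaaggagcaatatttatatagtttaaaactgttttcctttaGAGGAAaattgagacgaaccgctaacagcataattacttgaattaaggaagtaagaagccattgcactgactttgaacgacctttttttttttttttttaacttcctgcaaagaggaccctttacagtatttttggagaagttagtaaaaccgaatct
Ctss, chr3:95526536-95526785, plus strand: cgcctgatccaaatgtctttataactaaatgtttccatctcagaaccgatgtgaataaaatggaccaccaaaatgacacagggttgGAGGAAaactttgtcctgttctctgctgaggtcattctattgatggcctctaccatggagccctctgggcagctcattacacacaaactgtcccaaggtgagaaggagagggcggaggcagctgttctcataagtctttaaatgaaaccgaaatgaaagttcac
Clec7a, chr6:129472780-129473029, minus strand: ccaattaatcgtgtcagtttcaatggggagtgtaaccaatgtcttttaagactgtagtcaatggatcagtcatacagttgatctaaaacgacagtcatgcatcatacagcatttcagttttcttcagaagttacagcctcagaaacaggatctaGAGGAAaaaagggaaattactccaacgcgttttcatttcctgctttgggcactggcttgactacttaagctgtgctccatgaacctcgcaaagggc
Trem2, chr17:48346151-48346400, plus strand: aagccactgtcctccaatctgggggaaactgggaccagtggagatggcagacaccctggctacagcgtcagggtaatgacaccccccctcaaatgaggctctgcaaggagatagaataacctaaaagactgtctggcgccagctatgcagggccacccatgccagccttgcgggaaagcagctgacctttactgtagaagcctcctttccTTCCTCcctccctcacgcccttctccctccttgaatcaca
The motif began 158 bases before the start in Ptprc, 164 in Ctss, 96 in Clec7a and 40 in Trem2, where it lay on the opposite strand. A second annotated start of Ptprc had a window without it. Windows with the motif also belonged to genes that did not pass, such as Mrc1 with 3 matches (180, 167 and 35 bases before the start), Laptm5, Pf4 and Cbr2. Gas6 and Mertk, which passed, had a window without it. Csf1r and Adgre1, which also passed, had no window and were not searched.

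The complement chains C1qa, C1qb and C1qc, which assemble into the recognition unit of the classical pathway and lie side by side on chromosome 4, did not pass. C1qa had 49.3, 47.8, 49.85, 50.7 and 53.04 CPM in KO and 32.8, 62.05, 41.1, 37.9 and 44.1 CPM in WT replicates 1 to 5. C1qb had 40.9, 38.5, 38.5, 40.8 and 40.8 CPM in KO and 34.15, 68.5, 33.98, 41.2 and 41.65 CPM in WT. C1qc had 36.4 to 40.0 against 27.8 to 43.6 CPM. For all 3 chains WT replicate 2 was the highest of the 10 libraries and the other WT libraries reached at most 44.1, 41.7 and 32.0 CPM. The log2 differences were 0.20 (SE 0.14), -0.14 (SE 0.17) and 0.22 (SE 0.10), and without WT replicate 2 they were 0.375, 0.09 and 0.35, with C1qa and C1qc then past the threshold (adjusted p 0.00737 and 0.00189 by edgeR).

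The 3 partners of C1q that were listed passed, all higher in the libraries labelled KO. C1s1 and C1ra, its proteases, had log2 differences of 0.47 (SE 0.05) and 0.39 (SE 0.06), and Serping1, the inhibitor of those proteases, 0.26 (SE 0.06). These genes are also made by fibroblasts, and 4 of 6 fibroblast markers were higher too (Lum, Scara5, Dcn and Dpt), Lum with a mean of 277 CPM in KO and 155 CPM in WT. The part of fibroblast RNA in these differences was not tested.

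Scavenger receptors, lectins and pattern receptors split the WT libraries, and none passed. The mannose receptor gene Mrc1 had 28.5, 28.5, 27.75, 27.7 and 27.3 CPM in KO and 13.3, 51.2, 16.3, 40.3 and 37.1 CPM in WT replicates 1 to 5. Cd163, which takes up haemoglobin bound to haptoglobin, had 27.8, 27.3, 26.6, 29.2 and 26.5 CPM in KO and 14.7, 39.7, 17.1, 33.6 and 32.55 CPM in WT. Lyve1 had 22.98, 24.5, 22.9, 25 and 23.7 CPM in KO and 17.5, 43.4, 17.1, 31.6 and 30.6 CPM in WT. In each of the 3 genes WT replicates 2, 4 and 5 lay above all KO libraries and replicates 1 and 3 below them, and the log2 differences were -0.18 (SE 0.32), -0.004 (SE 0.24) and -0.24 (SE 0.23).

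Cd14, the co-receptor for bacterial lipopolysaccharide, and Msr1, a class A scavenger receptor, had the same split of WT replicates 1 and 3 from the others. Cd14 had 9.015, 9.925, 9.93, 8.37 and 9.25 CPM in KO and 7.52, 16.5, 7.98, 21.5 and 18.6 CPM in WT. Msr1 had 1.715, 1.92, 1.16, 1.97 and 2.26 CPM in KO and 1.36, 5.86, 1.55, 4.36 and 4.55 CPM in WT. In both genes WT replicates 2, 4 and 5 lay above all KO libraries, while replicates 1 and 3 lay below them in Cd14 and among them in Msr1 (log2 differences -0.64, SE 0.27, and -0.97, SE 0.38, adjusted p 0.149 and 0.117 by edgeR). Without WT replicate 1 both passed (adjusted p 0.0434 and 0.0367 by edgeR), as did Pf4 (0.0258), and without WT replicate 3 Msr1 and Fcer1g passed (0.0452 and 0.0383), all lower. Marco, another class A scavenger receptor, had at most 6 counts in any library, and no comparison was made.

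This split of the WT libraries recurred across the list. WT replicates 1 and 3 were the lowest of the WT libraries in 17 of the 30 genes (56.7%), against 23.3% of all tested genes, and the highest in 1 (Gas6, 3.33%), against 22.8% of all genes. All 5 KO libraries lay inside the WT range in 17 of the 30 (56.7%), against 44.5% of all genes. The ratio of the highest to the lowest WT library had a median of 1.89 over the 30 genes and 1.47 over all tested genes, and in KO 1.16 against 1.15. The summed level of 5 endothelial markers had the same split, with 192 and 140 CPM in WT replicates 1 and 3, 496, 580 and 480 CPM in replicates 2, 4 and 5, and 249 to 259 CPM in KO. That of 6 smooth muscle markers ran the other way, with 40040.0 and 40120.0 CPM in WT replicates 1 and 3 and 26400.0 to 32150.0 CPM in the other WT libraries. The part of cell makeup, or of the mitochondrial share, in the split of the macrophage genes was not tested.

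Against WT replicates 2, 4 and 5 alone, 16 of the 30 passed (53.3%, against 27.2% of 16100 tested genes). The 8 higher in the libraries labelled KO were Csf1r, Adgre1, Ptprc, Aif1, Trem2, Clec7a, Gas6 and Ctss (26.7%, against 13.7% of all genes). The 8 lower were Msr1, Pf4, Cd14, Fcer1g, Mrc1, Lyve1, Cd163 and Mertk (26.7%, against 13.6% of all genes). In all 8, WT replicates 1 and 3 were the lowest WT libraries, so leaving them out raised the WT level. The excess of lower genes over the background therefore restates that split and is no separate evidence. The log2 differences of the lower genes were -1.43 for Msr1, -1.17 for Pf4, -1.005 for Cd14, -0.94 for Fcer1g, -0.60 for Mrc1, -0.55 for Lyve1, -0.35 for Cd163 and -0.33 for Mertk. Of these 8, Mertk also passed in the 5 against 5 fit, and Pf4 with DESeq2 on all 10 libraries (adjusted p = 0.0430). In the same fit 2 of 5 endothelial markers (Pecam1 and Vwf) and 3 of 5 brown fat markers (Elovl3, Cox7a1 and Cox8b) were lower, and 3 of 6 smooth muscle markers (Acta2, Smtn and Myh11) higher. Brown fat markers summed to 149, 146, 36.3, 739 and 531 CPM in WT replicates 1 to 5 and 178 to 190.2 CPM in KO, and 5 adipocyte markers to 145, 90.1, 174.5, 349 and 259 CPM in WT and 227 to 236 CPM in KO. Their part in the macrophage values was not tested.

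**Figure D3:**
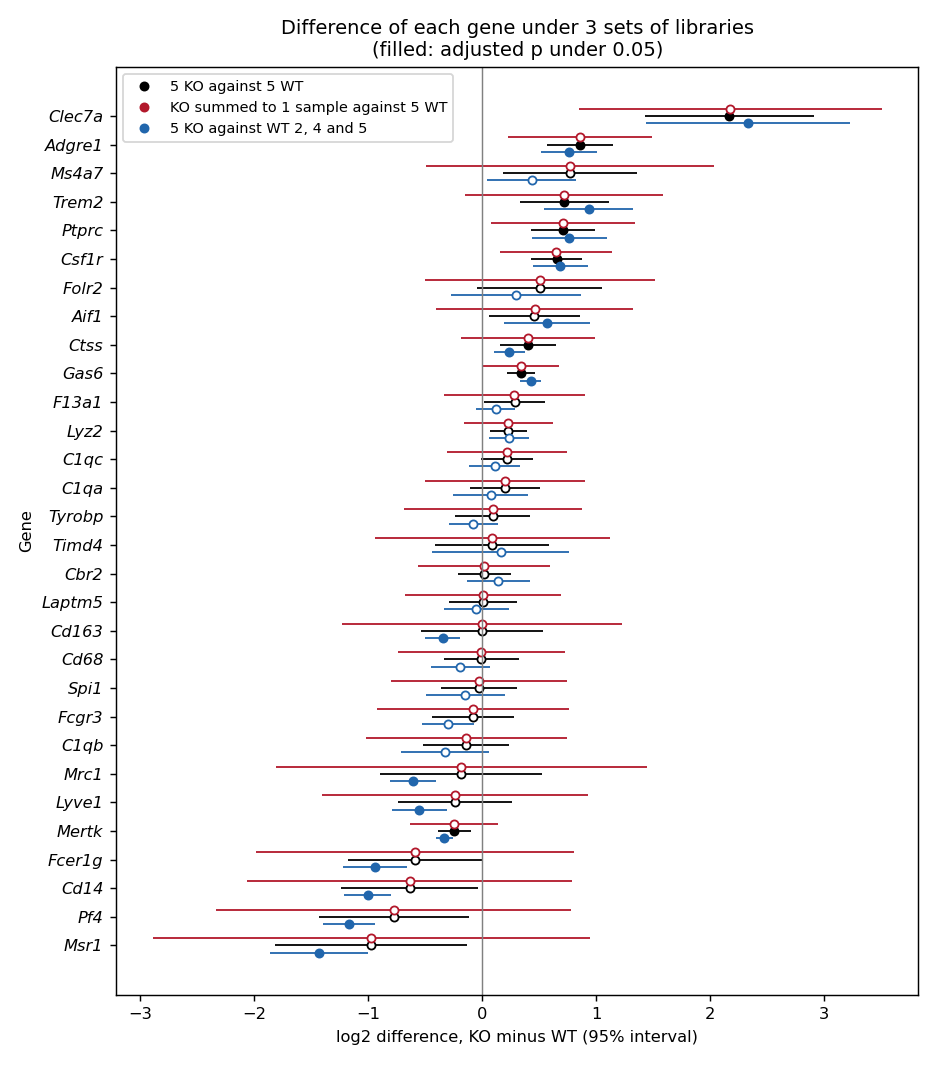
Log2 difference, KO minus WT, with 95% intervals for the 30 tested genes in 3 fits: 5 KO against 5 WT (black), KO summed to 1 sample against 5 WT (red) and 5 KO against WT 2, 4 and 5 (blue), with filled points past an adjusted p of 0.05. Clec7a is at the top (2.17) and Msr1 at the bottom (-0.97), no red point is filled, and the scavenger receptor genes are filled in blue alone.

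Of the 3 genes for the uptake of dying cells, 2 passed, in opposite directions. Gas6 (ENSMUSG00000031451, chromosome 8, 13465374 to 13494490), the ligand that bridges phosphatidylserine on dying cells to its receptors, had 566, 552, 579.5, 569 and 563 CPM in KO and 465, 440.3, 492, 412 and 425 CPM in WT. Every library labelled KO exceeded every WT library (fold 1.27, 95% interval 1.16 to 1.38, adjusted p = 0.00292 by edgeR). Its receptor gene Mertk (ENSMUSG00000014361, chromosome 2, 128698956 to 128802894) had 164.5, 166, 163, 164 and 165 CPM in KO and 174, 206, 173, 215 and 206 CPM in WT. All KO libraries lay below all WT libraries (fold 0.844, 95% interval 0.764 to 0.933, adjusted p = 0.0297 by edgeR). That separation of Mertk was found on TMM-scaled CPM, with factors of 0.906 and 0.945 in WT replicates 1 and 3. Overlap was not computed with other size factors. On CPM of total counts these 2 libraries lay below the KO libraries in Mertk. With KO as 1 sample the 95% intervals were 1.005 to 1.59 for Gas6 and 0.646 to 1.10 for Mertk.

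The other receptors of GAS6 and its relative Pros1 were listed as well. Tyro3 was lower, at 9.74 ± 0.85 against 12.8 ± 0.79 CPM (SD, n = 5 each; log2 difference -0.40, SE 0.08, adjusted p = 0.00961 by edgeR). Axl, the third receptor of the family, had 574 ± 4.99 against 590 ± 64.8 CPM (SD, n = 5) and did not pass. Pros1, the related ligand, did not pass either (log2 difference 0.14, SE 0.095). Gas6, Axl and Mertk are also made by cells of the vessel wall other than macrophages. Timd4, another phosphatidylserine receptor, had 0.77 to 1.18 against 0.66 to 1.28 CPM.

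Among lysosomal genes, Ctss, the elastin-degrading protease cathepsin S, had 15.96, 15.3, 15.5, 15.7 and 16.5 CPM in KO and 9.195, 13.8, 9.93, 13.5 and 13.2 CPM in WT. The groups did not overlap, and WT replicates 1 and 3 were the lowest (fold 1.32, 95% interval 1.115 to 1.57, adjusted p = 0.0348 by edgeR). Lyz2, the lysozyme of macrophages, had 115, 115, 118.5, 109 and 111 CPM in KO and 87.4, 112.5, 105, 85.9 and 93.3 CPM in WT, with WT replicate 2 inside the KO range. It did not pass (log2 difference 0.23, SE 0.07, adjusted p = 0.0586 by edgeR), though it did with DESeq2 (adjusted p = 0.0274), upper quartile scaling (0.0441) and no filter on low counts (0.0075). Its near-identical neighbour Lyz1 had 16 to 71 counts per library, against 1930 to 3163 for Lyz2, and how the counting split reads between them is not known. Cd68, a lysosomal glycoprotein, had 6.29 to 8.50 against 5.74 to 9.62 CPM, with KO inside the WT range.

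Of the genes tied to perivascular resident macrophages, none passed. Pf4, a chemokine shared with platelets, had 13.8, 12.1, 12.1, 11.2 and 10.95 CPM in KO and 9.33, 30.6, 11.6, 28.4 and 22.7 CPM in WT. WT replicates 2, 4 and 5 lay above all KO libraries, replicate 1 below them and replicate 3 within their range. The summed platelet markers did not follow that order, at 11.7, 4.70, 17.1, 8.52 and 7.197 CPM in WT replicates 1 to 5 and 4.59 to 5.88 CPM in KO. That sum includes Gp1bb, with 1902 of its 2087 exon bases overlapping Sept5 on the same strand, so reads of Sept5 may count in it. Of 3 tested platelet markers 1 passed (Ppbp, lower, log2 difference -3.96, SE 0.50). The part of platelets in the Pf4 values was not tested. F13a1, a transglutaminase of the clotting system, had 44.5 to 47.7 against 28.0 to 48.5 CPM (log2 difference 0.285, SE 0.12, adjusted p = 0.146 by edgeR). Folr2, a folate receptor, had 20 to 39 counts in KO and 12 to 26 in WT, and 975 of its 1546 exon bases overlap the predicted gene Gm10602 on the other strand.

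Cbr2, a carbonyl reductase, did not have WT replicates 1 and 3 as the lowest of WT. It had 455, 449.5, 463, 466 and 447 CPM in KO and 493, 520.4, 507, 339 and 391 CPM in WT. Its lowest values were in WT replicates 4 and 5, as in Gas6. Mrc1 and Cd163 were high in replicates 4 and 5, but they were highest in replicate 2, where Cbr2 was highest of WT too. The summed smooth muscle markers were also lowest in WT replicates 4 and 5 (26400 and 29260 CPM, against 32150 to 40120 CPM in the other WT libraries). Which cells made the Cbr2 RNA was not tested. The fold of Cbr2 was 1.01 (95% interval 0.862 to 1.19). Per kb of exon it was the most abundant of the 31 genes, at 339 ± 60.7 CPM per kb in WT (SD, n = 5), followed by Gas6 (175 ± 12.7), Lyz2 (73.55 ± 8.76) and Mertk (44.9 ± 4.56). C1qa (41.9 ± 10.7) and C1qb (40.3 ± 13.1) did not differ from Mertk beyond their spread. Csf1r (4.595 ± 0.78), Mrc1 (4.97 ± 2.55) and Cd163 (5.04 ± 2.015) formed a middle range in CPM per kb. Clec7a (0.11 ± 0.06) and Marco (0.02 ± 0.02) were lowest. The length used is that of all annotated exons, which is long in Ptprc (18313 bases) and lowers its value to 0.16 CPM per kb.

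**Figure D4:**
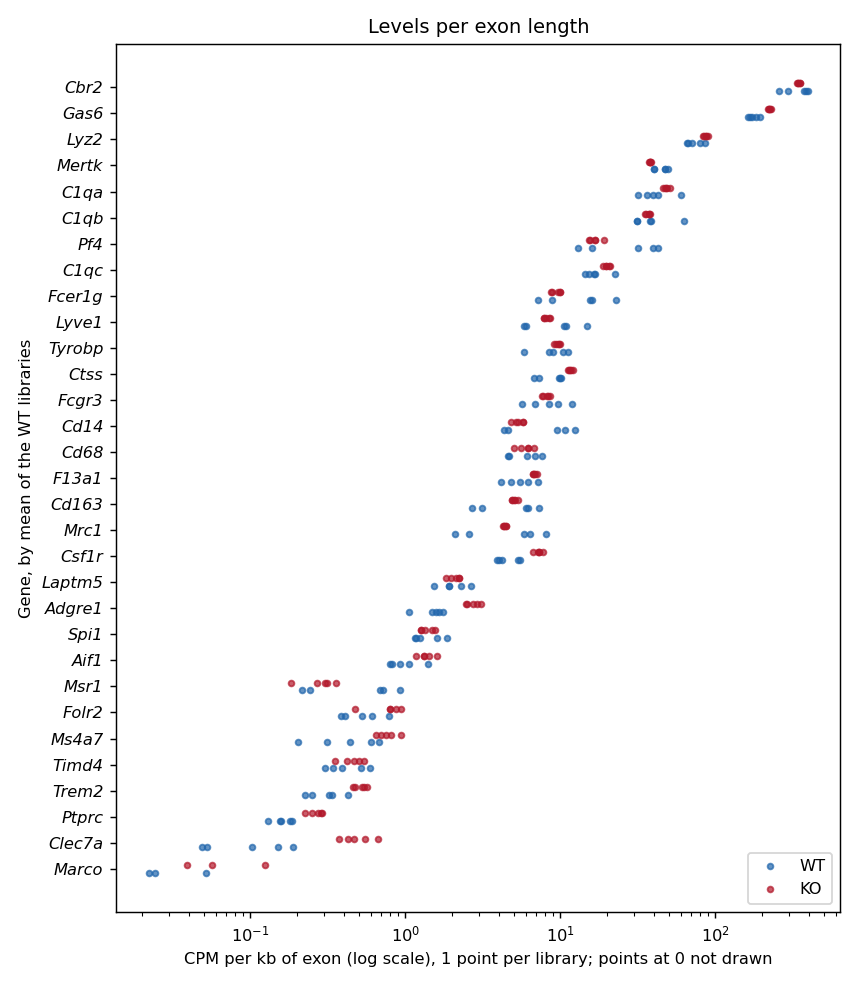
CPM per kb of exon on a log axis for the 31 genes, 1 point per library (blue WT, red KO), ordered by the mean of the WT libraries, with points at 0 not drawn. Levels span from 0.02 CPM per kb for Marco to 339 for Cbr2, and the 5 red points lie close together in most genes while the blue points spread.

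Other macrophage genes, from a list of 26 outside the 31, gave 7 higher and none lower in the 5 against 5 fit. Of all tested genes 6.84% were higher and 7.43% lower. In all 7 every KO library lay above every WT library, as in 7.38% of all tested genes. Cd209f, a lectin of the DC-SIGN family, had 7.65 ± 0.69 against 3.31 ± 0.34 CPM (SD, n = 5; log2 difference 1.205, SE 0.11, adjusted p = 7.98e-05 by edgeR). Mpeg1, a pore-forming protein of phagocytes, had 8.26 ± 1.05 against 3.39 ± 0.99 CPM, and Cybb, a subunit of the phagocyte oxidase, 4.43 ± 0.81 against 2.0 ± 0.53 CPM (SD, n = 5 each). With KO as 1 sample none of the 26 passed (adjusted p of at least 0.493 by edgeR). Against WT replicates 2, 4 and 5 alone, 8 were higher and 6 lower, where 13.7% and 13.6% of all tested genes were.

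None of the ligands of Csf1r and other factors of the lineage was called higher. Of 10 genes on that list 2 passed, both lower: Cebpb, a factor of myeloid and stress responses, at 1.85 ± 0.40 against 4.65 ± 0.96 CPM, and Nr1h3, a sterol-sensing nuclear receptor, at 20.7 ± 1.17 against 25.7 ± 2.48 CPM (SD, n = 5 each). Csf1 had 128 ± 1.43 against 144 ± 29.05 CPM and did not pass. Of 9 tested Fc receptor and adaptor genes 1 passed, Fcgrt, the neonatal Fc receptor, which other cells also make (log2 difference 0.28, SE 0.07). Of 5 tested monocyte genes 1 passed, Ly6c2, at 0.61 ± 0.10 against 0.21 ± 0.09 CPM (SD, n = 5). Of 8 inflammatory genes, 3 were tested in the 5 against 5 fit and none passed at an adjusted p of 0.05 by edgeR. None passed at an unadjusted p under 0.05 either, where 29.5% of all tested genes did. Against WT replicates 2, 4 and 5 alone the chemokine gene Ccl2 was lower (log2 difference -0.71, adjusted p = 0.0404 by edgeR), while in the 5 against 5 fit Il1b, Tnf, Il6, Nos2 and Cxcl2 had too few counts.

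Markers of some other blood cells, though not of all, differed between the labels in the 5 against 5 fit. Of all tested genes 6.84% were higher and 7.43% lower in that fit. The summed level of 8 B and plasma cell genes was 275 to 279.6 CPM in KO and 8.61 to 25.4 CPM in WT, with 5 of 6 tested genes higher. That of 7 T and NK cell genes was 4.87 to 5.67 against 1.997 to 4.405 CPM, with 2 of 5 tested genes higher (Cd8a and Cd4, both in few counts). The 6 red cell genes summed to 19.15 to 21.3 CPM in KO and 65.8 to 327 CPM in WT, with 5 of 5 tested lower. Of 9 granulocyte genes none had enough counts for the 5 against 5 fit, and S100a8 and S100a9 were lower against WT replicates 2, 4 and 5 alone (log2 differences -2.82 and -5.38). Their summed level was 0.11 to 0.64 CPM in KO, 0.68, 1.71, 0.60, 3.58 and 4.32 CPM in WT replicates 1 to 5, with 3 genes under 3 counts in every library. Mast cell (6 tested), dendritic cell (4 tested) and lymphatic endothelial genes (5 tested) gave none past the adjusted threshold of edgeR in the 5 against 5 fit. At an unadjusted p under 0.05 in that fit they gave 3, 0 and 3, where 29.5% of all tested genes passed in either direction. Against WT replicates 2, 4 and 5 alone Cpa3 (mast cell), Siglech (dendritic cell), Reln and Mmrn1 (lymphatic endothelium) were higher. Lyve1 is shared with lymphatic vessels. The part of these cells in the macrophage values was not tested. Ptprc is carried by all of the white cells among them.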

How the data were processed

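RNA sequencing counts of 10 aorta libraries (5 labelled KO, 5 WT, grouped by title) were used. The deposited files hold raw whole-number counts per gene, and 35519 of 35667 identifiers matched GENCODE M21 (GRCm38). The submitters' processing notes list Bowtie 0.12.2 and 2 builds (mm8, mm9) without roles. How reads were counted, on which annotation and with what regard to strand is not given in the sources used here. Overlapping genes may therefore share reads. Per the labels' protocols, RNA was extracted with Trizol and 1 ug went into Illumina TruSeq libraries.

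Counts were tested with edgeR 4.0.16 (R 4.3.3), quasi-likelihood with robust estimation, TMM and filterByExpr (minimum count 10, minimum total 15), with Benjamini-Hochberg adjustment and a threshold of 0.05. The KO-as-1-sample fit used the same genes. CPM are TMM-scaled. The SE is the log2 difference over the square root of F. Alternatives were other size factors and filters, DESeq2 1.42.0, limma-voom (limma 3.58.1), a replicate block and leaving out libraries. The fits were tested on simulated data, with no outcome given here. That test is therefore no evidence on p-values where the KO and WT libraries differ in spread (biological coefficient of variation 2.82% and 21.25%). Per kb values divide by the length of all annotated exons. Where 2 identifiers share a symbol, the one with more counts was used.

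The 31 genes, the lists and the alternatives were chosen with earlier results of these data known. Named genes are the 31, and of each other list up to 4 of smallest p past the threshold and the 2 most abundant, except for 1 gene that is not reported here. Genes named beyond that rule were chosen after their values were seen.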

Additional observations from a re-analysis of the deposited data

Results flagged for a closer look

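Of 62 groups of 5 libraries (31 genes in KO and in WT), 2 held a library far from the others by Dixon's ratio (above 0.71), where chance flags about 1 group in 20. Both were WT replicate 2 in a complement gene. C1qb had 68.5 CPM there, against 34.0 to 41.7 CPM in the other WT libraries (ratio 0.778). C1qc had 43.6 CPM, against 27.8 to 32.0 CPM (ratio 0.732). The third chain, C1qa, was also highest in that library (62.05 CPM) but was not flagged.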

How the results depend on the processing

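Under the replicate block (numbers shared by the labels), 6 of the 30 genes passed, 6 higher and 0 lower, and 1319 of all genes (8.4%) against 2242 without it. Same-numbered libraries deviated from their group means with correlations of -0.04 to 0.042. Because the KO libraries differed so little from each other, these correlations cannot show whether same-numbered libraries were paired. With the KO counts summed, 0 passed (0 higher, 0 lower), also on leaving out any WT library (0 to 0). Without WT replicates 1 and 3 together 16 passed, 8 of them lower. The number lower was 2 with DESeq2 and 0 with upper quartile scaling or no low-count filter. Leaving out each library in turn gave 5 to 13 passing, 5 to 12 higher and 0 to 4 lower, 1287 to 2678 of all genes (8.1% to 16.8%), and, without each WT library, 8 to 13 genes without overlap (15.9% to 19.9% of all tested genes, and 19.9% where the 13 were found, without WT replicate 2). Small differences changed sign, the cause not tested: Cd163 was 0.007 with DESeq2, 0.088 with limma-voom and the block, 0.005 with RLE, 0.035 with upper quartile and 0.041 without a filter, and Cd68 was 0.002, 0.005 (0.014 with the block), 0.003, 0.032 and 0.042. Spi1 was 0.01 with upper quartile and 0.022 without a filter, and Laptm5 was -0.049 and Tyrobp -0.076 without WT replicates 1 and 3. Leaving out each library, log2 differences ran from -0.084 to 0.108 for Spi1, -0.071 to 0.127 for Laptm5, -0.218 to 0.092 for C1qb, -0.182 to 0.089 for Fcgr3, -0.015 to 0.183 for Tyrobp, -0.151 to 0.179 for Cd163, -0.364 to 0.076 for Mrc1, -0.016 to 0.246 for Timd4, -0.087 to 0.113 for Cd68 and -0.067 to 0.087 for Cbr2. Per CPM of total counts, the KO mean over the WT mean of the summed level was 1.2 for uptake of dying cells and 16.2 for B and plasma cells. On that scale 7 of the 30 genes had no overlap, Mertk no longer among them (share of all genes not computed). Counts under 50 per library in at least 1 library limit Clec7a, Trem2, Aif1, Ms4a7, Msr1, Folr2, Timd4 and Marco.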

Other observations

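Ratios of counts between genes of a library are given as values (pairs chosen after their values were seen, with no test). The levels of Csf1r and of Adgre1 did not overlap between the groups, so ratios over either gene carry that difference. Counts of Pf4 over Csf1r were 0.259 to 0.316 in KO and 0.401, 0.96, 0.374, 1.26 and 0.938 in WT replicates 1 to 5. Counts of C1qa over Csf1r were 1.1 to 1.25 in KO and 1.33 to 1.95 in WT. Mrc1 over Csf1r (0.637 to 0.747 in KO, 0.527 to 1.79 in WT) and Cd163 over Csf1r (0.622 to 0.714 in KO, 0.552 to 1.5 in WT) overlapped. Counts of Mrc1 over Adgre1 were 2.89 to 3.43 in KO and 3.87, 9.07, 3.21, 7.58 and 7.76 in WT replicates 1 to 5, so that WT replicates 1 and 3 lay beside KO.

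The chemokine genes Ccl6 and Ccl9, made by myeloid cells, divided the WT libraries further than any of the 30 tested genes by the ratio of the highest to the lowest library. Ccl6 had 16.1 and 17.4 CPM in WT replicates 1 and 3, 86.8, 85.8 and 75.55 CPM in replicates 2, 4 and 5, and 23.97 to 25.5 CPM in KO. Ccl9 had 14.7 and 14.9 CPM, 97.3, 90.7 and 80.6 CPM, and 17.15 to 19.3 CPM. Of the 7 genes of lipid-associated macrophages, Spp1 (osteopontin) was higher (log2 difference 0.88, SE 0.245, adjusted p = 0.0370 by edgeR) and Lgals3 (galectin-3) lower (-0.86, SE 0.26, adjusted p = 0.0471), the latter again with WT replicates 1 and 3 near the KO values.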
